A study of Rattus norvegicus with 12 samples.

Results

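Osteoclasts are the giant cells that remove bone, and 9 genes for their fusion and their resorption of bone were followed through tissue from a healing rat femur: Ctsk, Acp5, Calcr, Siglec15, Ocstamp, Dcstamp, Oscar, Itgb3 and Src. They are rows picked by gene name out of 22601 genes in the table, with earlier results of these data known. RNA was taken 2 weeks after a drill defect was made in the distal femur of 8-week-old Sprague Dawley rats. The defect was left without a scaffold in the control group, and it received a hydrogel (GelMA), PCL or β-TCP scaffold in the other groups, with 3 libraries in each of the 4 groups. The hydrogel is methacrylated gelatin, PCL is the polyester polycaprolactone, and β-TCP is the mineral beta-tricalcium phosphate. All groups shared the defect, the strain and the time. Per the study's methods, the RNA came from newly formed tissue in control, and from the niche of scaffold, cells and new tissue in the scaffold groups. It mixes all cell types there. This difference in what was harvested cannot be told apart from an effect of the scaffold. The labels do not say that each library came from a separate rat, so the p-values measure the spread between these libraries, which may be technical.

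Osteoclasts form when precursors of the monocyte and macrophage lineage receive M-CSF and RANKL, switch on the transcription factor NFATc1 and fuse with each other. The fused cell attaches to bone through the αvβ3 integrin, seals off a space beneath itself, pumps acid into it to dissolve the mineral and releases proteases that cut the collagen. In a healing defect these cells remodel the callus, and they can also resorb a mineral implant.

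Of the 9 symbols, 8 had a row of that name, and 2 rows were matched by their NCBI gene identifier after the table had been seen. No row was named Ocstamp, but the row named Zfp334 carries the gene identifier (311639) that RefSeq now gives to Ocstamp, the osteoclast stimulatory transmembrane protein needed for fusion, and the file annotates this row with osteoclast differentiation and macrophage fusion. Its product text still reads zinc finger protein 334, and which of the genes its fragments came from was not tested. The row named Dcstamp stood between 0 and 0.0464 FPKM, which is 0 to 2 fragments, whereas RefSeq gives the name Dcstamp to the identifier of another row, LOC103690326, whose product text is the dendritic cell-specific transmembrane protein. FPKM is the number of fragments of a gene scaled by its length and by the mapped fragments of the library. Below, Ocstamp and Dcstamp refer to the rows Zfp334 and LOC103690326. Thus 10 rows stood for the 9 genes, and 9 of them, 1 for each gene, reached the filter of at least 1 FPKM in at least 3 libraries. Only the row named Dcstamp missed it.

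The libraries held 14325541 to 16574125 fragments each, as recovered from the FPKM steps. The members rested on 100 (Ocstamp in hydrogel replicate 3) to 166591 fragments (Ctsk in β-TCP replicate 1) in a library. Replicates 2 and 3 of the β-TCP group stood unusually close together, with a mean chi-square of 2.13 per gene between their fragments, while the other 11 pairs of libraries within a group gave 34.8 to 346 and sampling noise alone gives about 1. They were kept as separate libraries, and results without them or with their mean are given beside the calls that rest on them. Hemoglobin genes held 3.49 to 7.41% of the FPKM in the β-TCP libraries, 1.03 to 14.6% in control, 10 to 19% in hydrogel and 10.7 to 25.8% in PCL.

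Promoter sequences of 3 members are shown, each for its own reason. Ctsk is the most abundant of the 9 genes, Calcr had the largest difference of β-TCP from control among them, and Ocstamp stood as high in PCL as in β-TCP. Ctsk and Calcr both had all β-TCP libraries above all others. The sequences are the 250 bases before the start in RefSeq on build GRCr8, read 5′ to 3′ on the strand of the gene. Ctsk lies on the plus strand (chr2:185747298-185747547), Calcr on the minus strand (chr4:32691076-32691325) and Ocstamp on the minus strand (chr3:174560908-174561157). Capitals mark the NFAT core GGAAA, read as TTTCC on the other strand, and the E-box CACGTG or CATGTG, the latter read as CACATG on the other strand.
Ctsk: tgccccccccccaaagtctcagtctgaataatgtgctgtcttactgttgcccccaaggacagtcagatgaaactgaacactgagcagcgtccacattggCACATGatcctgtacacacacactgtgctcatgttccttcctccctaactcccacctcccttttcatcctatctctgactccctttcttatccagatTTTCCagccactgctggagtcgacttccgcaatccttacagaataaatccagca
Calcr: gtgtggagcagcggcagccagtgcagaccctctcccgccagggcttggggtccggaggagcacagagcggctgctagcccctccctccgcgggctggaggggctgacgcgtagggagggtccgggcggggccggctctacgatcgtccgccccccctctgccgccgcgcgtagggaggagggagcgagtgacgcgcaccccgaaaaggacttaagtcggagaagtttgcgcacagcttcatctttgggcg
Ocstamp: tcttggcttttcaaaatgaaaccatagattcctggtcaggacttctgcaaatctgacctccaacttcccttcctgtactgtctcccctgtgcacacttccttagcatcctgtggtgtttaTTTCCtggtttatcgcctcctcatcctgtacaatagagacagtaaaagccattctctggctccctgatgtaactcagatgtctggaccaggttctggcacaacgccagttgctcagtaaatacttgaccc
Motifs were searched on both strands. The NFAT core stood in 5 of the 8 member promoters (7 of the 9 genes have an entry, and Acp5 has 2) and in 56.9% of the 33469 promoters of the same length. The E-box stood in 3 of the 8 and in 17.1% of all. The AP-1 motif TGANTCA was in 0 of 8 and in 6.34% of all, and the PU.1 motif GAGGAAGT was in 0 of 8 and in 2.04% of all. The Ctsk window holds 1 NFAT core and 1 E-box, the Ocstamp window 1 NFAT core, and the Calcr window none of the motifs searched.

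Ctsk, the cysteine protease cathepsin K that cuts type I collagen in the acid space, was among the most abundant genes of the tissue. Its FPKM was 3118, 2157 and 3580 in control, 2706, 3693 and 1614 in hydrogel, 3074, 3418 and 2359 in PCL, and 6920, 6883 and 6866 in β-TCP. Its rank by FPKM among all genes of a library was between 4 and 20, and it was 6, 5 and 4 in the β-TCP libraries. The 3 β-TCP values lie close together and far above the remaining 9 libraries, which overlap between the groups. Acp5, the tartrate-resistant acid phosphatase by which osteoclasts are stained, came second among the members, at 1011, 794 and 1109 FPKM in control, 757, 831 and 367 in hydrogel, 703, 882 and 575 in PCL, and 1534, 1503 and 1525 in β-TCP. All β-TCP values were above all others, and control was the group next below.

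Calcr encodes the calcitonin receptor, through which calcitonin stops resorption. It was low, at 8.61, 7.05 and 6.08 FPKM in control, 8.79, 12.3 and 6.2 in hydrogel, and 9.73, 14.9 and 8.91 in PCL, against 33.8, 26.4 and 26.5 in β-TCP. Every PCL library was above every control library, though hydrogel overlapped both, and the β-TCP libraries were separate from all. Siglec15, a sialic acid-binding receptor that signals with DAP12 in osteoclast maturation, had 35.2, 24.1 and 24.6 FPKM in control, 26.4, 31.3 and 11.7 in hydrogel, 33.5, 39.7 and 25.6 in PCL, and 87.1, 61.8 and 63.3 in β-TCP. Its lowest β-TCP value was above the highest value elsewhere, and the other groups overlapped.

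The fusion genes did not share this order. Ocstamp, at 4.08, 2.92 and 4.27 FPKM in control and 4.05, 3.8 and 1.63 in hydrogel, stood at 6.98, 10 and 5.15 in PCL and at 7.24, 7.35 and 6.95 in β-TCP. The highest of the 12 values was a PCL library, and every PCL and β-TCP library was above every control and hydrogel library. Dcstamp, whose product is the transmembrane protein that macrophages and osteoclasts need for fusion, had 5.63, 4.44 and 6.19 FPKM in control, 4.46, 5.79 and 2.01 in hydrogel, 6.8, 6.69 and 5.09 in PCL, and 7.2, 5.71 and 6.16 in β-TCP. The 4 groups overlapped, with hydrogel replicate 3 alone at the bottom.

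Oscar, an immunoglobulin-like receptor for collagen that costimulates osteoclast precursors, had 9.76, 5.96 and 4.23 FPKM in control, 5.34, 5.21 and 3.15 in hydrogel, 5.73, 8.45 and 5.48 in PCL, and 9.9, 11.2 and 12.3 in β-TCP. Its lowest β-TCP value was barely above control replicate 1. Itgb3, the β3 chain of the integrin that holds the cell to bone, had 144, 137 and 102 FPKM in control, 132, 136 and 76.9 in hydrogel, 121, 145 and 102 in PCL, and 252, 209 and 216 in β-TCP. Src, the kinase that acts downstream of this integrin and organizes the ruffled border, had 31.5, 27.3 and 26 FPKM in control, 26.3, 30.8 and 18.3 in hydrogel, 25.4, 27.8 and 20.6 in PCL, and 57.8, 50.5 and 50.9 in β-TCP. Both genes had separate β-TCP libraries and overlapping values in the rest.

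**Figure D1:**
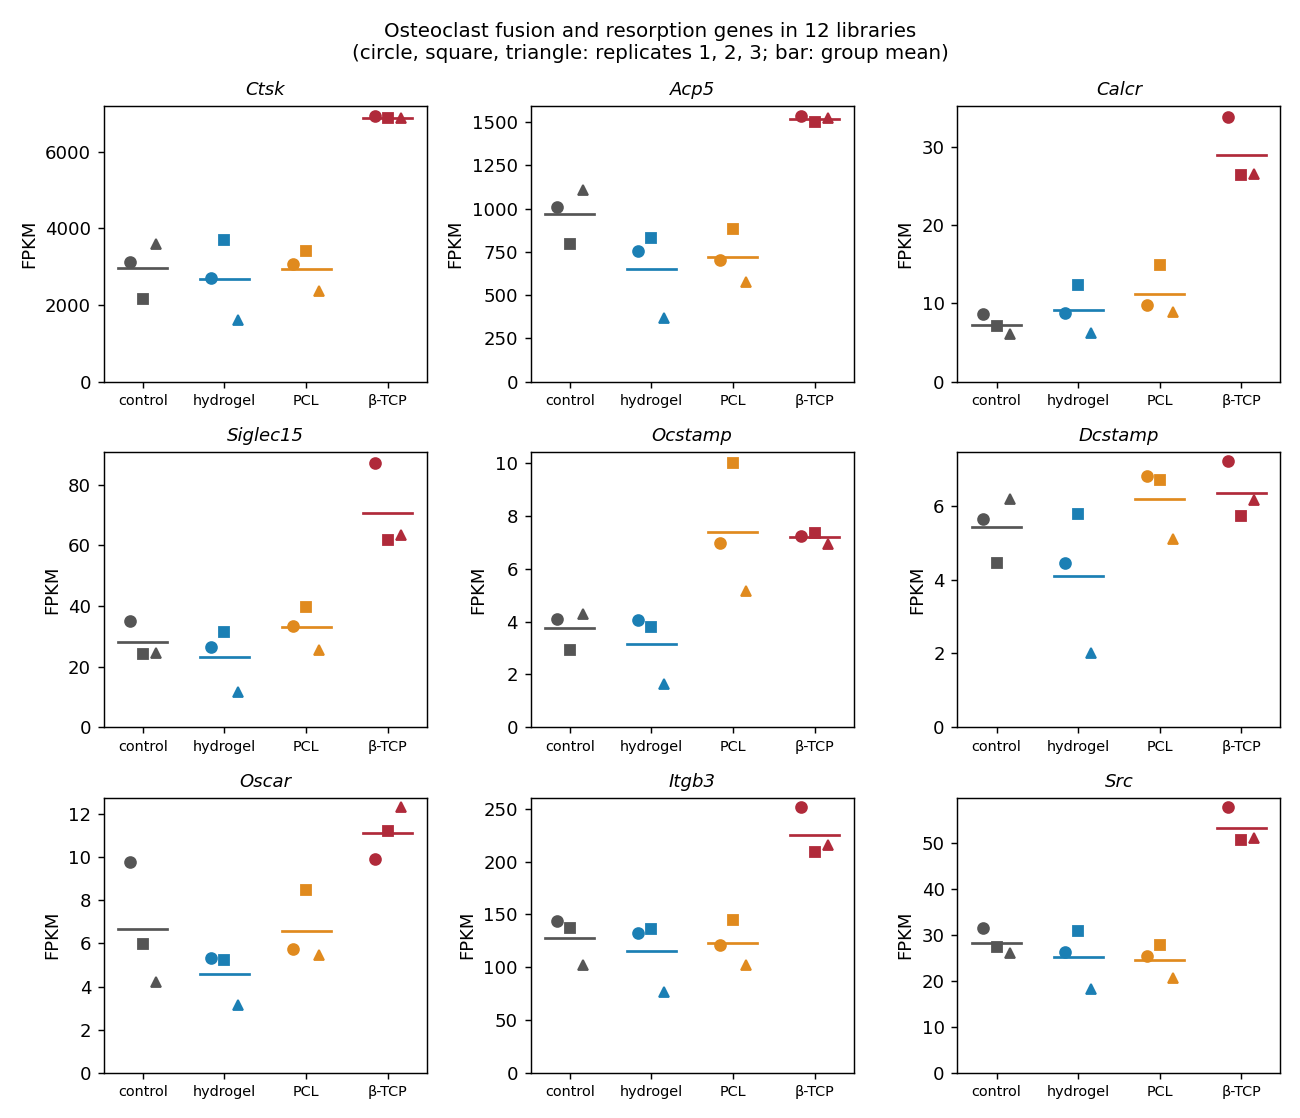
FPKM of the 9 genes (vertical axes, linear from 0, each gene with its own scale) in the 4 groups, with 3 libraries a group as points and the group mean as a bar. The β-TCP libraries stand above the other 9 libraries in 7 of the 9 panels, Ocstamp is as high in PCL as in β-TCP, and the groups overlap for Dcstamp.

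All 3 β-TCP libraries were above all 9 other libraries for 7 of the 9 genes (not Ocstamp and Dcstamp), as they were for 8.72% of the 12633 genes tested. Hydrogel replicate 3 was the lowest of the 12 libraries for 8 of the 9 genes (not Calcr), and for 17% of the genes tested. In such a bulk sample, fewer osteoclasts, less RNA of these genes per osteoclast and a different mix of tissue cannot be told apart. Hydrogel replicate 3 also differed from hydrogel replicates 1 and 2 in markers of other cells. The summed FPKM of muscle markers was 355 in it, against 35.6 and 20.4. That of osteoblast and osteocyte markers was 4730, against 11470 and 11171. How this bears on the 9 genes was not tested. In the order of the group means, β-TCP came first for 8 of the 9 genes. PCL, control and hydrogel, which followed it, had group means within 1 SD of each other for Ctsk, and their libraries overlapped for all genes but Ocstamp and Calcr.

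The comparison of β-TCP with control sets the defect with the mineral scaffold against the empty defect, and it includes the difference in what was harvested. Calcr, Ctsk, Siglec15 and Src were up-regulated in β-TCP, which makes 4 of the 9 genes at an adjusted p under 0.05, while 4.22% of all genes tested were called higher (limma on log2(FPKM + 1), Benjamini-Hochberg over 12633 genes). The log2 fold change was 1.86 ± 0.24 for Calcr (SE, 3 libraries against 3, adjusted p = 0.00895), 1.31 ± 0.32 for Siglec15 (adjusted p = 0.0458), 1.25 ± 0.29 for Ctsk (adjusted p = 0.0376) and 0.89 ± 0.18 for Src (adjusted p = 0.0261). On this scale the pseudocount of 1 understates the change of low genes such as Calcr, whose ratio of group means was 3.99. Ratios of group means were 2.53 for Siglec15, 2.33 for Ctsk and 1.88 for Src.

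The other 5 genes did not pass the test in this comparison. Itgb3 differed by 0.83 ± 0.23 (adjusted p = 0.0668), Ocstamp by 0.79 ± 0.27 (adjusted p = 0.127), Oscar by 0.73 ± 0.27 (adjusted p = 0.164) and Acp5 by 0.66 ± 0.28 (adjusted p = 0.244), all with β-TCP on the higher side. Dcstamp differed by 0.20 ± 0.26 (adjusted p = 0.774), with a 95% interval from -0.37 to 0.78. The median log2 fold change of the 9 genes was 0.83, against 0.03 over all genes tested. At an unadjusted p under 0.05 with a fold over 2, the threshold of the study's methods, 3 genes were higher (Calcr, Siglec15 and Ctsk), against 2.49% of the genes tested.

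These calls depended on single libraries. Without β-TCP replicate 2 or without replicate 3, or with these close libraries averaged to 1, limma called 0 of the 9 genes at the adjusted threshold, and 7, 6 and 6 at an unadjusted p under 0.05, while the median of the 9 log2 fold changes stayed between 0.86 and 0.88. The unadjusted threshold is loose. In the full fit of limma, Acp5 had an unadjusted p of 0.0397 and an adjusted p of 0.244. Here and below, the share of all genes at an unadjusted p under 0.05 was not counted, so such counts have no share to be set against. Without β-TCP replicate 1 or control replicate 2, 1 gene was called, which was Calcr. Without hydrogel replicate 1, PCL replicate 1 or PCL replicate 2, 2 genes were called. With hemoglobin genes left out of the FPKM total 1 was called, and 2 were in limma-voom on the recovered fragments. Over the fits that left out 1 library each, the log2 fold change of Calcr ran from 1.75 to 1.98, that of Ctsk from 1.04 to 1.41, that of Siglec15 from 1.15 to 1.48 and that of Src from 0.83 to 0.97. That of Oscar ran from 0.48 to 1.003 and that of Dcstamp from 0.09 to 0.29.

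Against hydrogel, another scaffold in place of an empty defect, 8 of the 9 genes were up-regulated in β-TCP at the adjusted threshold, all but Dcstamp, with 5.17% of all genes tested called higher. Siglec15 had the largest difference, at 1.66 ± 0.32 (SE, adjusted p = 0.02), followed by Calcr at 1.60 ± 0.24 (adjusted p = 0.0103), Ctsk at 1.45 ± 0.29 (adjusted p = 0.0207), Acp5 at 1.31 ± 0.28 (adjusted p = 0.0272) and Oscar at 1.14 ± 0.27 (adjusted p = 0.0353). Src rose by 1.08 ± 0.18 (adjusted p = 0.0131), Ocstamp by 1.04 ± 0.27 (adjusted p = 0.0476) and Itgb3 by 1.01 ± 0.23 (adjusted p = 0.0327). Dcstamp differed by 0.61 ± 0.26 (adjusted p = 0.131). The same 8 genes were counted at the threshold of the methods, where 3.36% of all genes were. The median was 1.14, against -0.06 over all genes tested.

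The low values of hydrogel replicate 3 and the close β-TCP libraries bore on this count. Without hydrogel replicate 3, 3 genes were called (Calcr, Siglec15 and Src), with a median log2 fold change of 0.94, and without hydrogel replicate 1, 3 genes were also called. Without β-TCP replicate 1, 4 genes were called. Without β-TCP replicate 2 or 3, or with these averaged, 0 of the 9 were called and 8 had an unadjusted p under 0.05 in limma. The share of all genes at that unadjusted threshold was not counted. It is loose here too, as Dcstamp had an unadjusted p of 0.04 and an adjusted p of 0.131 in the full fit of limma.

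Against PCL, Calcr (1.32 ± 0.24, adjusted p = 0.0476) and Src (1.09 ± 0.18, adjusted p = 0.0362) were up-regulated in β-TCP, which makes 2 of the 9 genes, with 0.57% of all genes tested called higher. Ctsk differed by 1.24 ± 0.29 (adjusted p = 0.0853), Acp5 by 1.10 ± 0.28 (adjusted p = 0.0986), Siglec15 by 1.08 ± 0.32 (adjusted p = 0.128), Itgb3 by 0.88 ± 0.23 (adjusted p = 0.0986) and Oscar by 0.70 ± 0.27 (adjusted p = 0.172). Ocstamp differed by 0.01 ± 0.27, with a 95% interval from -0.58 to 0.60, and Dcstamp by 0.04 ± 0.26, with an interval from -0.54 to 0.61. At the threshold of the methods 5 genes were higher, against 1.14% of all genes. Leaving out 1 library moved the adjusted count between 0 and 6. It was 0 without any of the libraries of β-TCP or PCL, without control replicate 1 or 2 and without hydrogel replicate 1, and it was 5 without control replicate 3 and 6 without hydrogel replicate 3. The comparisons above share the 3 β-TCP libraries, so their agreement is no separate evidence.

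**Figure D2:**
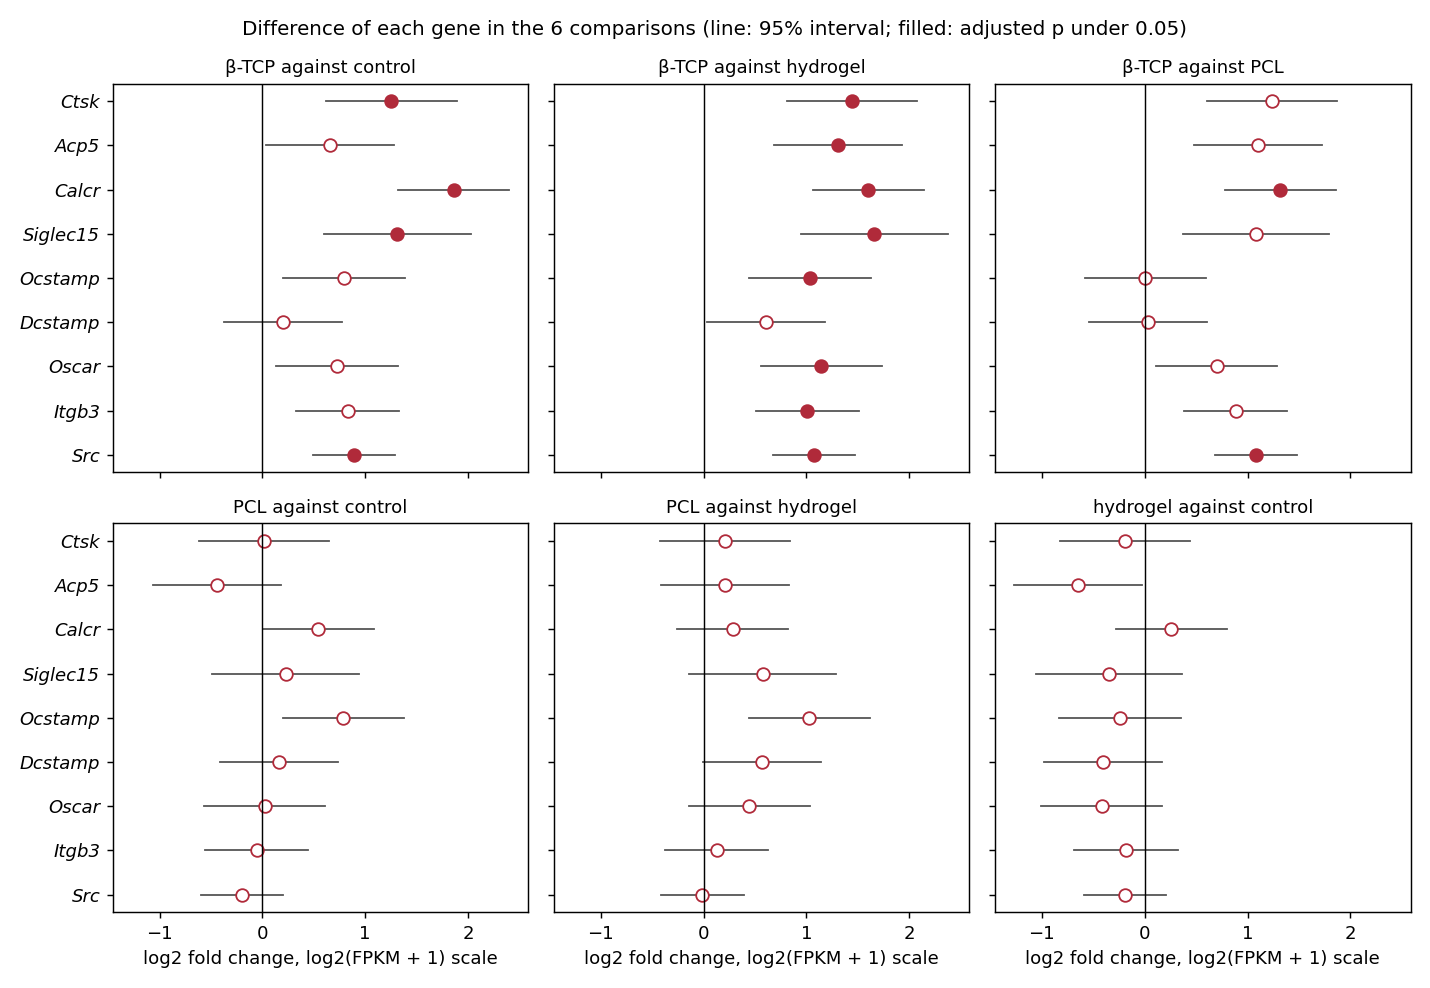
log2 fold change of the 9 genes on the log2(FPKM + 1) scale (horizontal axes) in the 6 comparisons, with the 95% interval as a line, and a filled point where the adjusted p of limma was under 0.05. All filled points lie in the 3 panels of β-TCP, 4 against control, 8 against hydrogel and 2 against PCL, and Ocstamp and Dcstamp lie near 0 in the panel against PCL.

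Hydrogel and PCL were each set against the empty defect, sharing the 3 control libraries. In hydrogel 0 of the 9 genes passed the adjusted threshold in limma or in limma-voom, 0.00792% of all genes were called higher, and 1 gene had an unadjusted p under 0.05. That gene was Acp5, at -0.65 ± 0.28 (unadjusted p = 0.0428, adjusted p = 0.312) with the mean at 652 ± 249 FPKM in hydrogel and 971 ± 161 in control (SD, n = 3). The other log2 fold changes lay between -0.42 (Oscar) and 0.26 (Calcr), and only that of Calcr was above 0. Without hydrogel replicate 3 the median of the 9 moved from -0.24 to 0.06. Over all genes tested the median was 0.14 in the full fit. The 95% interval for Ctsk ran from -0.83 to 0.44. How many of all genes had an unadjusted p under 0.05 was not counted, so 1 of 9 is not read as a result about Acp5.

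In PCL against control, 0 of the 9 genes passed in either of these tests (0.245% of all genes were called higher and 0.0317% lower), and 2 had an unadjusted p under 0.05 in limma. They were Ocstamp, at 0.79 ± 0.27 (unadjusted p = 0.0137, adjusted p = 0.198), and Calcr, at 0.54 ± 0.24 (unadjusted p = 0.0493, adjusted p = 0.270). How many of all genes had an unadjusted p under 0.05 was not counted, so 2 of 9 is not read as a result about these genes. Ctsk differed by 0.01 ± 0.29 with a 95% interval from -0.62 to 0.65, and Acp5 by -0.44 ± 0.28 with an interval from -1.06 to 0.18. PCL against hydrogel gave 0 of 9 at the adjusted threshold in either test, where 0.103% of all genes were called higher. Ocstamp alone reached the threshold of the methods, at 1.03 ± 0.27 (unadjusted p = 0.00291, adjusted p = 0.388), where 0.546% of all genes did. Without PCL replicate 2 or without hydrogel replicate 3 it did not reach that threshold.

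Set against Ctsk in the same library, Ocstamp stood apart in PCL. It was 0.218 to 0.293% of the Ctsk FPKM in PCL, against 0.119 to 0.135% in control, 0.101 to 0.149% in hydrogel and 0.101 to 0.107% in β-TCP. Ocstamp was the only one of the 8 ratios in which all PCL libraries were above all others. All 3 PCL libraries were above all control and hydrogel libraries in FPKM for 1 of the 9 genes, Ocstamp, and for 3.15% of all genes. Dcstamp was lowest relative to Ctsk in β-TCP, at 0.083 to 0.104% against 0.124 to 0.221% in the 9 other libraries. Acp5 was 31 to 36.8% of Ctsk in control and 21.8 to 28% in the libraries with a scaffold, with no overlap. Calcr was 0.17 to 0.327% of Ctsk in control and 0.384 to 0.489% in β-TCP, while hydrogel and PCL lay partly between these. These ratios were not tested.

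**Figure D3:**
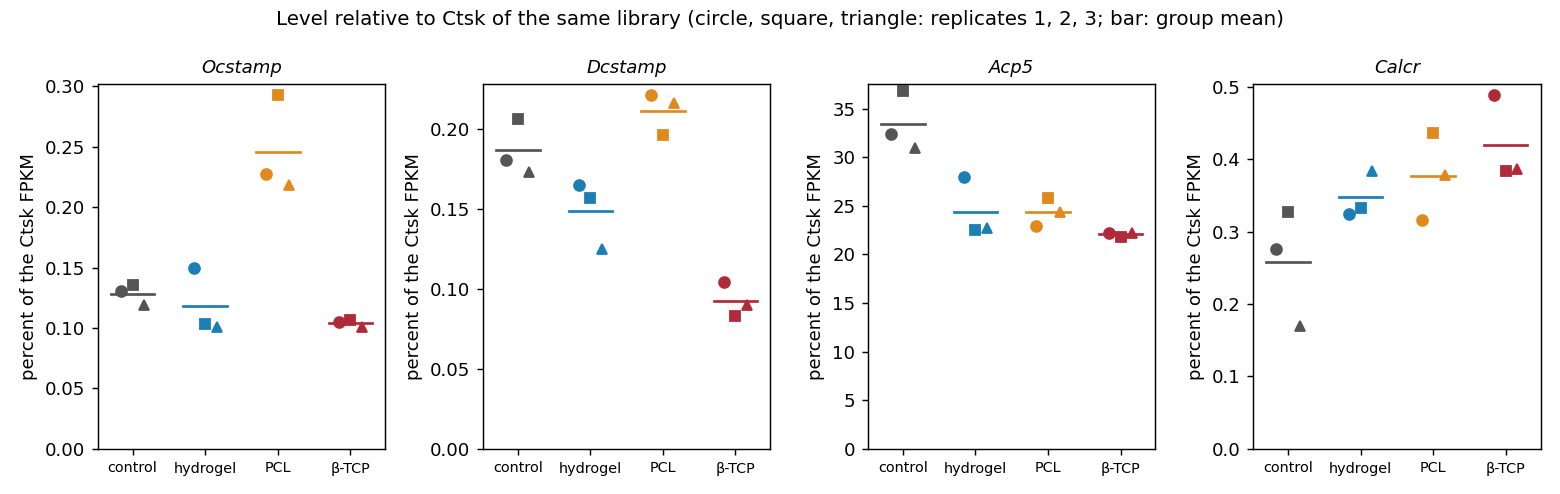
FPKM of Ocstamp, Dcstamp, Acp5 and Calcr as a percent of the Ctsk FPKM of the same library (vertical axes, linear from 0), with 3 libraries a group as points and the group mean as a bar. Ocstamp is 0.218 to 0.293% in PCL and at most 0.149% elsewhere, Dcstamp is lowest in β-TCP, and Acp5 is highest in control.

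Genes with other roles in the osteoclast were read from lists that cover the pathway. Of the acid secretion genes, which pump protons and chloride into the sealed space, 12 of 16 were up-regulated in β-TCP against control, 14 of 16 against hydrogel and 2 of 16 against PCL. Atp6v1b2, a subunit of the proton pump, went from 163 ± 21.2 FPKM in control to 424 ± 29.7 in β-TCP (SD, n = 3, log2 fold change 1.38, adjusted p = 0.0119), and Atp6v0d2, the pump subunit that also takes part in fusion, from 93.4 ± 7.24 to 228 ± 9.8 (1.28, adjusted p = 0.0269). Tcirg1, the osteoclast form of the a subunit, stood at 84.7, 62.9 and 70.7 FPKM in control and at 147, 147 and 150 in β-TCP. Car2, the carbonic anhydrase that supplies the protons and is also abundant in red blood cells, lay lower in β-TCP than in hydrogel and PCL without passing the test, and is named after its values were seen. It stood at 508, 250 and 245 FPKM in β-TCP, 974, 502 and 887 in hydrogel, 664, 1000 and 1760 in PCL, and 471, 710 and 84.2 in control (-1.26 against hydrogel, and -1.74 ± 0.70 with an adjusted p of 0.186 against PCL). Without β-TCP replicate 2 or 3, or with these averaged, 0 of the 16 were called against either group. In these limma fits 15 had an unadjusted p under 0.05, a loose threshold whose share of all genes was not counted.

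Of the transcription factors of osteoclasts, 6 of 11 were up-regulated against control and 7 of 11 against hydrogel. Against control, Prdm1, which represses inhibitors of osteoclast genes, rose by 1.20 (adjusted p = 0.0309), Mitf by 1.03 (adjusted p = 0.0399) and Spi1, which encodes PU.1, by 1.03 (adjusted p = 0.0283). Nfatc1, the central factor, had 37.1, 28.9 and 30.9 FPKM in control and 63.5, 49.5 and 51.2 in β-TCP, a difference of 0.74 ± 0.20 that missed the threshold against control (adjusted p = 0.065) and passed it against hydrogel (0.98 ± 0.20, adjusted p = 0.0235). Fos, the AP-1 subunit that RANK signals induce, passed against PCL, as 1 of the 11, with 45.8 to 50.3 FPKM in β-TCP and 8.34 to 14.7 in PCL (2.06 ± 0.38, adjusted p = 0.0476). This call was kept in 3 of the 12 fits that left out 1 library each, with the log2 fold change between 1.90 and 2.27, and it was lost without control replicate 1 or 2, hydrogel replicate 1 or any library of PCL or β-TCP, and in limma-voom (adjusted p = 0.0529). The calls of this list against control and hydrogel went to 0 without β-TCP replicate 2 or 3 or with both averaged. In these limma fits 9 or 10 of 11 had an unadjusted p under 0.05, where the share of all genes was not counted.

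Of 12 receptors and adaptors, 4 were up-regulated in β-TCP against control: Trem2, Tyrobp (the adaptor DAP12 with which Siglec15 and Trem2 signal), Fcer1g (the adaptor of Oscar) and Csf1r (the M-CSF receptor). Tyrobp went from 271 ± 78.1 to 627 ± 52.6 FPKM (1.24, adjusted p = 0.0184) and Csf1r from 155 ± 36.9 to 296 ± 8.63 (0.96, adjusted p = 0.048). Tnfrsf11a, which encodes RANK, had 19.4, 14 and 15 FPKM in control and 35.4, 31.6 and 31.6 in β-TCP (0.99 ± 0.26, adjusted p = 0.0556 against control and 0.0212 against hydrogel). Its ligand RANKL, encoded by Tnfsf11, stood between 0 and 0.369 FPKM in the 12 libraries and was not tested. Against hydrogel 3 of the 12 were up-regulated and 0 passed on the lower side. At the threshold of the methods 2 were lower, which are named after their values were seen: Blnk at -1.45 ± 0.54 (adjusted p = 0.103) and Plcg2 at -1.19 ± 0.42 (adjusted p = 0.0874), a B cell adaptor and a phospholipase that B cells share with osteoclasts. Tnfrsf11b, which encodes the decoy receptor OPG, had a mean of 11.3 ± 6.48 FPKM in control and 7.99 ± 0.341 in β-TCP (-0.33 ± 0.32, adjusted p = 0.685).

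Of 9 further matrix proteases 5 were up-regulated in β-TCP against control and 5 against hydrogel. Mmp12, the macrophage elastase, was the list's only gene called in PCL as well, at 850, 504 and 367 FPKM in PCL, 91.4, 516 and 514 in β-TCP, 20.7, 24.5 and 36.5 in control, and 13.9, 44.9 and 11.3 in hydrogel. Against control it rose by 4.30 in PCL (adjusted p = 0.0338) and by 3.40 in β-TCP (adjusted p = 0.0251). The call in PCL was kept in 3 of the 12 fits that left out 1 library each, with the log2 fold change between 3.97 and 4.58. It was lost without control replicate 1 or 2, hydrogel replicate 1 or 3, any PCL library or β-TCP replicate 2 or 3, and in limma-voom (adjusted p = 0.0686). Of 12 other fusion genes 3 passed against control, namely Cd44, Itgav and Sirpa. Itgav, the αv chain that pairs with Itgb3, had 130, 117 and 116 FPKM in β-TCP and 27.3 to 58.7 in the other libraries (1.25 ± 0.26 against control, adjusted p = 0.0284). The sealing zone list gave 1 of 16 against control, which was Itgav again. Among 9 ligands, Ccl9 passed against control (2.61 ± 0.50, adjusted p = 0.0212), and Spp1, Csf1, Tnfsf12 and Sema3a passed against hydrogel. Sema3a, a ligand that restrains osteoclasts, was low, at 1.0 ± 0.331 FPKM in hydrogel and 2.05 ± 0.137 in β-TCP (SD, n = 3). All these calls of receptors, proteases, fusion genes, sealing zone genes and ligands in β-TCP against control and hydrogel went to 0 in limma without β-TCP replicate 2 or 3 or with both averaged, where between 3 and 8 genes of each of these lists had an unadjusted p under 0.05 on the higher side. The share of all genes at that unadjusted threshold was not counted.

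Of a list of 9 genes that restrain osteoclasts, which does not hold Sema3a, 0 were higher in β-TCP than in control at the adjusted threshold in limma, and 2 at an unadjusted p under 0.05. Cst6, an inhibitor of cysteine proteases, was high in PCL, at 65.9, 38 and 21.1 FPKM in PCL against at most 3.73 in the 9 other libraries. It rose in PCL by 4.44 ± 0.42 against control (adjusted p = 0.00381) and by 3.85 ± 0.42 against hydrogel (adjusted p = 0.00971). In limma-voom both calls were lost (adjusted p = 0.0686 and 0.096). With 1 library left out the call against control was kept in 12 of 12 fits, and that against hydrogel in 9, being lost without hydrogel replicate 1 or 3 or PCL replicate 2 (adjusted p up to 0.0822).

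**Figure D4:**
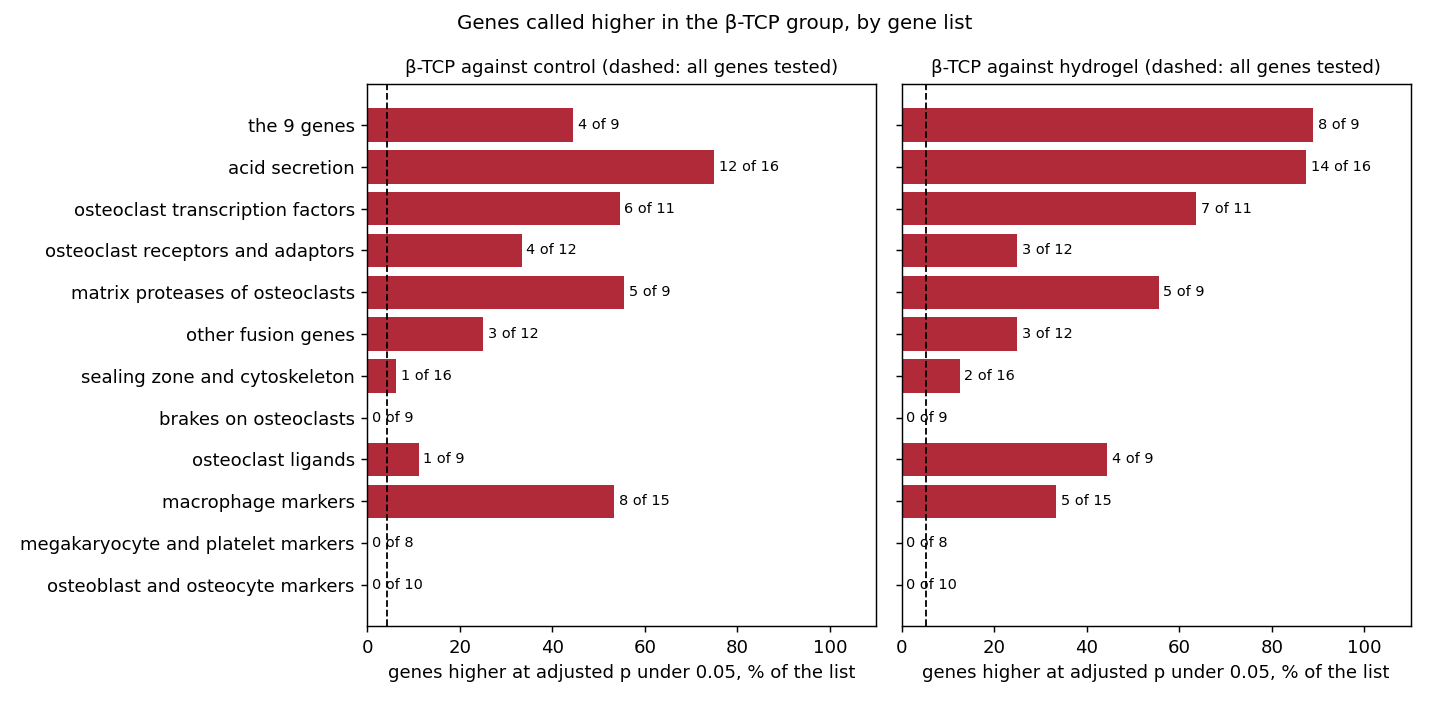
Share of the tested genes of each list that were higher in β-TCP than in control (left) and hydrogel (right) at an adjusted p under 0.05, in percent, with the count beside each bar and the share of all genes tested as a dashed line. Acid secretion has the largest share against control, 12 of 16, and the lists of megakaryocyte and osteoblast markers have none. These counts go to 0 when β-TCP replicate 2 or 3 is left out.

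Markers of macrophages, from which osteoclasts derive and which express part of the genes above, were in part also higher in β-TCP, though not evenly over its libraries. Of the 15 macrophage markers tested 8 were higher in β-TCP than in control and 5 than in hydrogel, at the adjusted threshold, with a median log2 fold change of 1.31 against control. These counts too went to 0 in limma without β-TCP replicate 2 or 3 or with both averaged, where 12 and 7 had an unadjusted p under 0.05 on the higher side. How many of all genes did so was not counted. Not all of these markers were raised. At the threshold of the methods, 4 were higher and 1 lower in β-TCP than in hydrogel, and 4 were higher and 1 lower than in PCL. The lowest log2 fold changes were -1.66 against hydrogel and -1.09 against PCL. The summed FPKM of the macrophage list was 1990 to 4147 in control, 3674 to 5556 in hydrogel, 4811 to 5293 in PCL, and 4257, 9500 and 9563 in β-TCP. In β-TCP replicate 1 the sum was thus close to that of control replicate 1 and below hydrogel replicate 2 and all PCL libraries, while its Ctsk, Calcr, Siglec15, Itgb3 and Src were the highest of the 12 libraries. Msr1, a scavenger receptor of macrophages, showed the same split, at 17.1 FPKM in β-TCP replicate 1 and 60.3 and 62.4 in the others. Divided by the macrophage sum, none of the 9 genes had all β-TCP libraries above all others. These ratios move with the sum, which was uneven between the β-TCP libraries, and the part of macrophages in these differences was not tested.

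Markers of other cell types were read in the same way. Itgb3 is also a gene of megakaryocytes and platelets, of whose 8 tested markers limma called 0 (1 at an unadjusted p under 0.05) and of which the median log2 fold change of β-TCP against control was -0.46 (summed FPKM 83.5 to 251 in control and 198 to 440 in β-TCP). The 1 gene at that threshold was Pf4, platelet factor 4, which stood at 114.6, 161 and 69.25 FPKM in control and 169, 392.9 and 421.1 in β-TCP (1.48 ± 0.38, unadjusted p = 0.0026, adjusted p = 0.0525), while another defining gene, Ppbp, stood at 0 to 53 FPKM in control and 2.28 to 11.9 in β-TCP. Of the 10 osteoblast and osteocyte markers 0 were called between β-TCP and control in limma, 2 had an unadjusted p under 0.05 on the lower side, and the median was -0.37, and Col1a1 had 7902 to 11860 FPKM in control and 7852 to 8537 in β-TCP. Of the 10 cartilage markers tested 6 were lower in β-TCP than in control, and 0 passed in hydrogel or PCL. The drop was still shared, with medians against control of -3.38 in hydrogel, -3.64 in PCL and -3.41 in β-TCP. At the threshold of the methods 10 were lower in each. For β-TCP the share of all genes called lower is not given here at either threshold. For hydrogel and PCL it is not given at that of the methods. Such counts of lower genes, here and above, thus have no share to be set against. The level of the cartilage markers in control was carried by replicate 3, where Col10a1 stood at 1219 FPKM against 129.9 and 284.3 in the other replicates. Without control replicate 3, 5 were lower in β-TCP. Without β-TCP replicate 2 or 3, 0 were (10 at an unadjusted p under 0.05 in limma, its share of all genes not counted). Of the erythroid, skeletal muscle and neutrophil markers, 0 passed the adjusted threshold of limma between any groups, and 0 had an unadjusted p under 0.05 between β-TCP and control. Against the other scaffolds the medians of these lists and of the megakaryocyte list lay lower in β-TCP. Summed FPKM of the erythroid and neutrophil lists was lower in every β-TCP library than in any hydrogel or PCL library. The megakaryocyte sums overlapped, at 198 to 440 in β-TCP, 229 to 409 in hydrogel and 259 to 379 in PCL. So did the muscle sums, at 18.3 to 43.3 in β-TCP, 20.4 to 355 in hydrogel and 18.9 to 227 in PCL. The median log2 fold change of β-TCP against hydrogel was -1.92 for erythroid, -1.69 for neutrophil, -1.63 for megakaryocyte and -1.21 for muscle markers, with 2 of 13, 5 of 11, 5 of 8 and 0 of 10 genes at an unadjusted p under 0.05 on the lower side and 0 at the adjusted threshold of limma. Against PCL the medians were -2.24, -1.37, -0.93 and -1.45, with 5, 0, 1 and 0 such genes, and 1 megakaryocyte marker, Vwf, on the higher side. The part of these cell types in the differences of the 9 genes was not tested.

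The pattern of the 9 genes over the 12 libraries was summed up as the mean of their standardized log2 values, and the other 12624 genes were ranked by their correlation with it. The 10 most alike were Tcirg1 (Pearson's r = 0.993), Rhou (0.991), Ckb (0.990), Fosl2 (0.989), Kazn (0.986), Atp6v0d2 (0.984), Atp6v1a (0.983), Fhl3 (0.983), Ctbp2 (0.981) and F2r (0.981). The β-TCP libraries stand apart in this score (1.11 to 1.39, with the others from -1.83 to 0.36), so the correlation rests largely on them, and the points share their library's depth. Of the deviations from the group means, the correlation was 0.982 for Tcirg1 and 0.987 for Rhou, and 2 of the 10 genes were among the 10 most alike by that measure, while 3 were by Spearman's rank correlation. Hydrogel replicate 3 stood alone at the bottom of the score, at -1.83, with the next lowest library, PCL replicate 3, at -0.606. How far the correlations of deviations rest on hydrogel replicate 3 was not tested. Ckb, the brain-type creatine kinase, stood at 450 to 616 FPKM in control, 264 to 623 in hydrogel, 460 to 672 in PCL, and 978 to 1050 in β-TCP. Among the members, Siglec15 was nearest to the score (0.992) and Dcstamp and Ocstamp farthest (0.782 and 0.810), each being itself a part of it.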

How the data were processed

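Bulk RNA was sequenced in 12 libraries. Per the labels and the methods, the authors used Trimmomatic for trimming, HISAT2 for alignment and Cufflinks for FPKM, and deposited 1 table of FPKM per gene. The submitters' processing notes list, without versions, StringTie, Bowtie, DESeq and HTSeq too, with Rnor_6.0 as the genome build. The study's methods and the labels name different RNA and library kits. A further 3 columns of values match no sample label and were not used. Whether the counting used strand is not given in the sources used here.

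A gene was tested if 3 or more libraries reached 1 FPKM, which left 12633 of 22601 genes. The test was two-sided, in limma 3.58.1 (R 4.3.3), with log2(FPKM + 1) as the value, all 12 libraries in 1 fit of the group means, empirical Bayes with a trend, and p-values adjusted by Benjamini and Hochberg. The script was tested on simulated data. The FPKM steps gave whole fragments for 99.99% of genes above 0 (tolerance 0.01), which limma-voom used as an alternative. Matching Ocstamp and Dcstamp by identifier was decided after the table was seen. Equal replicate numbers did not pair libraries (correlations of deviations -0.612 to 0.469). Besides the 9 genes, list genes named were those at an adjusted p under 0.05, up to 4 per list and comparison by size, or the 2 most abundant of a list with none, and Nfatc1, Tnfrsf11a, Csf1r, Tnfsf11 and Tnfrsf11b. The members and the lists were chosen with earlier results of these data known. Alternatives were other pseudocounts, filters, scalings, weights and fits, and leaving out each library.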

Additional observations from a re-analysis of the deposited data

How the results depend on the processing

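The 9 differences of β-TCP from control and from hydrogel kept their direction in every alternative run, as did those from PCL for all but Ocstamp and Dcstamp. The count of called genes was less stable. Against control it was 4 and became 2 without the low-value filter, 2 with median-of-ratios scaling, 1 with quantile normalization, 1 with hemoglobin left out of the total, 2 in a fit of only the 2 groups, 7 with weights per library, 2 in limma-voom and 0 with β-TCP replicates 2 and 3 averaged, and 0 to 5 when 1 library was left out (3 to 4 at the threshold of the methods, from 3). Against hydrogel, 8 became 5 without the filter, 5 with a replicate block and 0 with the averaged libraries, and 0 to 8 with 1 library left out. The replicate numbers do not pair these libraries. At the threshold of the methods 8 became 5 with weights and 3 to 8 with 1 library left out. Against PCL, 2 became 1 with a pseudocount of 0.1, without the filter, with at least 6 libraries, with median-of-ratios scaling and with hemoglobin left out, 7 in a fit of 2 groups, 8 with weights (of which 1 was lower), 0 in limma-voom, 0 with the averaged libraries, and 0 to 6 with 1 library left out. At the threshold of the methods 5 became 1 with weights and 2 to 6 with 1 library left out. With weights, which had not converged (40.6 for control replicate 1), hydrogel against control gave 2, PCL against control 5 (1 at the threshold of the methods) and PCL against hydrogel 4, all from 0. PCL against hydrogel at the threshold of the methods was 1, 0 with rows matched by name only (an alternative added after seeing the data), and 0 to 1 with 1 library left out. The causes were not tested.

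Some differences near 0 changed sign. With 1 library left out, hydrogel against control gave Ctsk from -0.47 to 0.13, Siglec15 from -0.61 to 0.060, Ocstamp from -0.41 to 0.060, Itgb3 from -0.33 to 0.082 and Src from -0.34 to 0.016. In PCL against control, the values became Ctsk -0.013 with median-of-ratios scaling, Ctsk -0.27, Oscar -0.0086 with quantile normalization, Ctsk -0.078, Oscar -0.054 with hemoglobin left out, Oscar -0.25 with weights and Ctsk -0.015 in limma-voom. With 1 library left out, PCL against control gave Itgb3 from -0.21 to 0.069, Ctsk from -0.20 to 0.17 and Oscar from -0.22 to 0.30. In PCL against hydrogel, the values became Src 0.098 with median-of-ratios scaling, Src 0.047 with quantile normalization and Src 0.027 with weights. With 1 library left out, PCL against hydrogel gave Src from -0.21 to 0.15, Ctsk from -0.12 to 0.48, Acp5 from -0.16 to 0.43 and Itgb3 from -0.14 to 0.27. In β-TCP against PCL, the values became Ocstamp -0.030 with median-of-ratios scaling, Ocstamp -0.038, Dcstamp -0.0072 with hemoglobin left out and Ocstamp -0.35, Dcstamp -0.11 with weights. With 1 library left out, β-TCP against PCL gave Ocstamp from -0.20 to 0.22 and Dcstamp from -0.079 to 0.10. In hydrogel against control these changes of sign came without hydrogel replicate 3. With 3 libraries a group, the 95% intervals of the 9 genes were 0.8 to 1.43 wide on the log2 scale.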
